A study of Chromochloris zofingiensis with 18 samples.

Results

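The genes described here are 100 genes of the green microalga Chromochloris zofingiensis whose transcripts fell during sulfur starvation and were still low 12 h after sulfur was supplied again. They were chosen from the measured values, out of 15220 genes listed in at least 1 sample. The 3370 genes whose mean log2(FPKM + 1) at SR-12 h was at least 0.5 below that at 0 h were ranked by the highest of their 5 differences from 0 h, and the 100 with the lowest such value were taken (1 gene was left out beforehand). FPKM divides the reads of a gene by its transcript length and by the sample's total of mapped reads, so levels of different genes are given per length.

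Cells of strain ATCC30412 in exponential growth were harvested, washed and placed in Kuhl medium in which magnesium chloride stood in for magnesium sulfate, under continuous light and air enriched with CO2. RNA was taken at 0 h, after 6, 12, 24 and 48 h of sulfur starvation (SS, with each time written as in SS-6 h), and 12 h into sulfur replenishment of cells starved for 48 h (SR-12 h), from 3 biological replicate cultures each, 18 samples in all. The sample records describe the replenishment as transfer to fresh sulfur-containing medium, and the methods of the study as sodium sulfate added to the culture. No RNA of cells kept in sulfur-replete medium to the later times was among the samples, so hours in culture and sulfur supply cannot be told apart against 0 h, and fewer cells of a kind and less RNA per cell cannot be told apart either.

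Sulfur reaches the cell as sulfate and is reduced and built into cysteine and methionine, and from there into glutathione, iron-sulfur clusters and sulfolipids. When sulfate runs out, green algae slow their division, lose part of the photosynthetic apparatus and store carbon as starch and neutral lipid, and these changes are known to reverse when sulfate returns. In this alga the study reported more starch per cell in starvation, but an unchanged share of starch in the biomass. The genes below are those whose transcripts did not come back within the 12 h sampled here, and descriptions are at hand for few of them. The study's annotation of all genes was used in a shortened copy, so a gene given here without a description may have one there.

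Coding sequences in the study's supplementary list covered 6 of the 100 genes, and 5 of them are shown. These are the 4 genes first by the rule and Cz01g06090, which neighbours Cz01g06080. None of the 5 has a gene name in the tables used here. Capitals mark the in-frame codons ATG, TGC and TGT, which stand for the sulfur amino acids methionine and cysteine. Cz02g32100 is given whole (288 bases) and the first 240 bases are given of the others.
Cz16g17150: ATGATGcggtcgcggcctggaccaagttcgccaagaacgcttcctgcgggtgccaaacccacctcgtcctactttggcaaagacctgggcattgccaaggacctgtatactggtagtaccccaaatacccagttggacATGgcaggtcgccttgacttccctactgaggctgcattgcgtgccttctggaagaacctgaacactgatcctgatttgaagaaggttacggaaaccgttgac
Cz02g32100: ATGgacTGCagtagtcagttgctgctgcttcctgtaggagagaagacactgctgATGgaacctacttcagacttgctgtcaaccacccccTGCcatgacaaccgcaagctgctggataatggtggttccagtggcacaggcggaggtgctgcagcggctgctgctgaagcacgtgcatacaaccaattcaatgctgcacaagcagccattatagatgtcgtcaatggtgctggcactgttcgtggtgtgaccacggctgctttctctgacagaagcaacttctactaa
Cz11g28160: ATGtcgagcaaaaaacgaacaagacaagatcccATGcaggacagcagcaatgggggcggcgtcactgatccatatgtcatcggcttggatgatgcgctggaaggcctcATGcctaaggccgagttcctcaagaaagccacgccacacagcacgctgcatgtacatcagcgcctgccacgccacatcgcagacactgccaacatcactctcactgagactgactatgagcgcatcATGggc
Cz01g06080: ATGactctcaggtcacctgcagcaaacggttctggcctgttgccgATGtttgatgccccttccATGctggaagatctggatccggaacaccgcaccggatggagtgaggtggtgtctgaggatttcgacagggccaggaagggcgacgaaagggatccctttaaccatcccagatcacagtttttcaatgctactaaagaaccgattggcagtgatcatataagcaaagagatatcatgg
Cz01g06090: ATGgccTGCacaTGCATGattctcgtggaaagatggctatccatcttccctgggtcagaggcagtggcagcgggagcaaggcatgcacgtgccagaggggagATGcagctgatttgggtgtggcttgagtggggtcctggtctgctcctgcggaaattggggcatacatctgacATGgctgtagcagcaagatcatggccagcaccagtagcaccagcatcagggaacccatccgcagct
Over the bases given for each gene, at most 396, these codons made up 3.03% to 5.30% of all codons in the 6 genes, with a median of 3.79%. The median was 6.06% in 43 other genes of the same list that fell at SS-6 h (range 1.52% to 15.9%) and 5.30% in 48 genes that rose (range 0.758% to 13.8%). The 6 shares therefore lay inside the range of both other groups.

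At 0 h the 100 genes were expressed from a mean of 2.63 to 1793 FPKM, with a median of 64.6 FPKM against 26.2 FPKM over all genes. Together they held 1.87%, 1.82% and 1.75% of all FPKM in the 3 samples at 0 h. The share was 0.298%, 0.361% and 0.373% after 6 h of starvation, and 0.447%, 0.438% and 0.417% after 48 h. At SR-12 h it was 0.262%, 0.255% and 0.292%, below all 12 starved samples. The summed level was thus no nearer to its level at 0 h after replenishment than at any time of starvation.

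The differences from 0 h chose these genes and are given as a description. The median over the 100 genes of the log2 difference from 0 h was -2.32, -2.18, -2.02 and -1.89 at the 4 times of starvation, in order, and -2.37 after replenishment, whereas the medians over all genes were -0.17, -0.06, -0.02, 0.19 and -0.06. In terms of FPKM, a median of 16.2% of the level at 0 h was left after 6 h and 22.03% after 48 h of starvation, and 12.5% after replenishment. All 100 passed the call (an absolute log2 fold change of 1 or more together with an adjusted p of 0.05 or less) as lower at SR-12 h than at 0 h, where 8.42% of all genes did. After 6, 12 and 48 h of starvation all 100 did as well, where 21.7%, 11.9% and 8.04% of all genes did, and 99 did after 24 h, where 6.89% of all genes did. The choice alone met the fold part of these calls for all 100 genes. These calls and the overlap given next are therefore a description and no test. In 98 of the 100 genes every sample taken after 0 h lay below every sample at 0 h, which held for 6.39% of all genes. The 2 exceptions were UNPLg00760 and Cz06g28080, named after their values were seen. UNPLg00760, the 1 gene not called at SS-24 h, had 18.6, 0 and 4.51 FPKM there, against 24.6, 21.6 and 9.44 FPKM at 0 h.

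**Figure D1:**
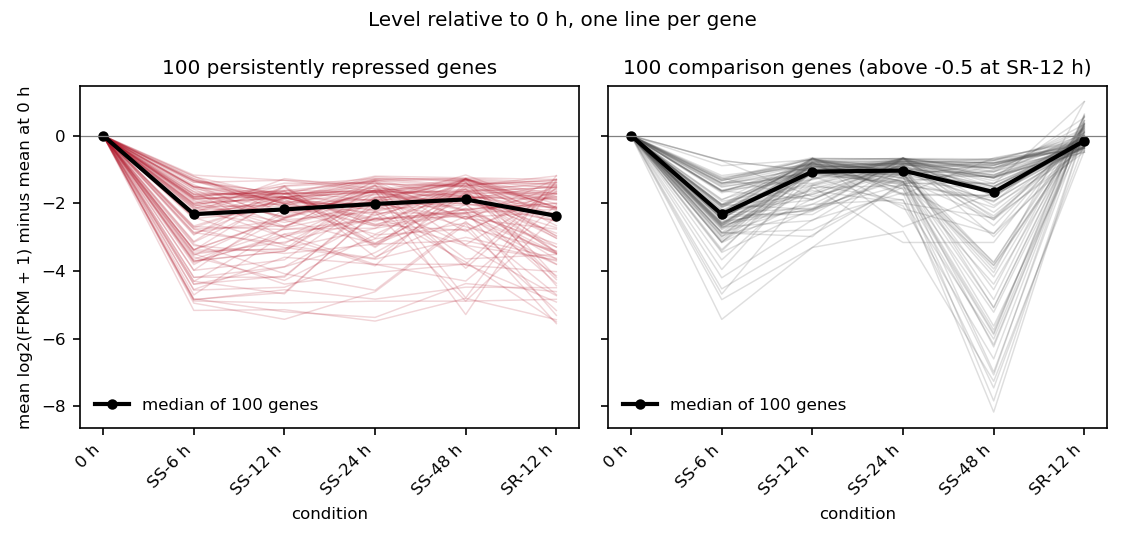
Mean log2(FPKM + 1) minus the mean at 0 h (vertical axis) by condition (horizontal axis), one thin line per gene and the median as a thick line. The left panel holds the 100 genes described here, with a median of -2.37 at SR-12 h, and the right panel holds 100 comparison genes with a median of -0.15 at SR-12 h.

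The plot of the courses sets these genes beside 100 comparison genes that had the lowest highest difference over the 4 starvation times but were above -0.5 at SR-12 h, so the 2 sets differ at SR-12 h by construction. Both had nearly the same median at SS-6 h, -2.32 in the persistent genes and -2.33 in the comparison genes. After 12 and 24 h of starvation the medians were -2.18 and -2.02 in the persistent genes, and -1.06 and -1.03 in the comparison genes. After 48 h they were closer again, -1.89 and -1.67. The highest difference reached -1.16 in the last persistent gene taken, and -0.65 over the starvation times in the last comparison gene. Part of the gap during starvation can therefore come from the choice of the sets. At 0 h their median levels were 64.6 FPKM in the persistent genes and 70.8 FPKM in the comparison genes.

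As a description, 100 genes were also chosen again from 2 replicate numbers and read in the third, whose samples the choice had not used. With replicate 1, 2 and 3 read in turn, 73, 90 and 77 of 100 genes lay at least 1 log2 unit below 0 h in all 5 later samples of that number, compared with 0.959%, 0.992% and 0.986% of all genes. The numbers below 0 h in all 5 were 99, 100 and 97, compared with 14.3%, 14.8% and 15.04% of all genes. Of the genes so chosen, 85, 90 and 91 were also among the 100. The shares over all genes include genes that the rule could not take.

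At the far end stood 4 genes with less than 3% of the level at 0 h in all 5 later conditions. Cz16g17150, the first by the rule, has no description and was close to absent after 0 h. It was measured at 27.7, 27.8 and 34.5 before starvation (0 h), 0, 0.13 and 0 after 6 h, 0, 0 and 0 after 12 h, 0, 0.12 and 0 after 24 h and 0, 0 and 0.12 after 48 h of it, then 0.12, 0 and 0.12 after replenishment (FPKM). In 10 of its 15 later samples it was not listed.

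Cz02g32100, the second, also without a description, had 79.5, 71.96 and 80.01 FPKM at 0 h, 1.52, 0.62 and 1.52 after 6 h and 2.04, 0.86 and 2.82 after 48 h of starvation, and 0, 1.73 and 1.13 after replenishment. Cz11g28160 resembles a His-Me finger endonuclease and carries the domain of nucleases that cut DNA and RNA without sequence preference together with a trypsin-like peptidase domain. It had 48.3, 43.8 and 40.3 FPKM at 0 h, 0.23, 0.70 and 0.80 after 6 h and 1.95, 0.58 and 0.77 after 48 h of starvation, and 1.10, 1.13 and 0.78 after replenishment. Cz01g06080, similar to a hypothetical protein of the charophyte alga Klebsormidium flaccidum, had 46.3, 47.1 and 52.1 FPKM at 0 h, 0.22, 0.17 and 0.19 after 24 h of starvation and 1.21, 0.85 and 1.03 after replenishment. None of the 4 passed the call in SR-12 h relative to SS-48 h (adjusted p = 0.62, 0.0888, 0.949 and 0.0715 in the order given), so no return towards 0 h could be detected at these low levels.

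At the other end of the rule, the last 3 taken were Cz08g03050, Cz13g20090 and UNPLg00135, whose highest differences from 0 h were -1.18, -1.17 and -1.16. The first 3 left out, UNPLg00572, Cz04g10230 and Cz16g08320, each had -1.16. The condition nearest to 0 h was the 48-h starvation in 39 genes, the 24-h starvation in 19 and the replenishment in 16, and the lowest was the 6-h starvation in 36 and the replenishment in 31. The 5 later means of a gene spanned between 0.11 and 3.98 log2 units, with a median of 1.46.

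The comparison of SR-12 h with SS-48 h sets replenished cells beside cells at the last time of starvation. No sample was starved for longer than 48 h, so further hours in culture and any change of medium cannot be told apart from sulfate. This comparison was not among the contrasts of the rule, although the rule used both levels against 0 h. The rule took only genes low at both SR-12 h and SS-48 h, so the choice of genes shapes the counts below. By limma with Benjamini-Hochberg adjustment over all genes, 10 of the 100 genes were called higher in replenished cells (SR-12 h) than in cells starved for 48 h, where 8.21% of all genes were called higher. A further 31 were called lower, where 18.0% of all genes were called lower, and 59 were not called. With no minimum on the fold, 50 were lower, close to the 48.9% of all genes that were, and 10 were higher, where 19.1% of all genes were. The median log2 fold change was -0.45 over the 100 genes and -0.32 over all genes, and 70 of the 100 values were below 0. In 50 genes every SR-12 h sample lay below every SS-48 h sample, and in 13 above, with 55.3% and 22.8% of all genes doing so.

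The level of all genes together also differed between these conditions. Among 13778 genes with a mean of at least 1 FPKM, the median gene differed by -0.36 log2 units (SR-12 h minus SS-48 h), and by -0.02 after median-ratio scaling. On that scale 11 of the 100 genes were called higher and 22 lower, against 11.7% and 10.2% of all genes. By contrast, of the 100 comparison genes 69 were called higher and 0 lower by limma in the replenished cells, with a median of 1.56 (0 were lower at an unadjusted p under 0.05 as well). The choice of both sets used the level at SR-12 h.

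**Figure D2:**
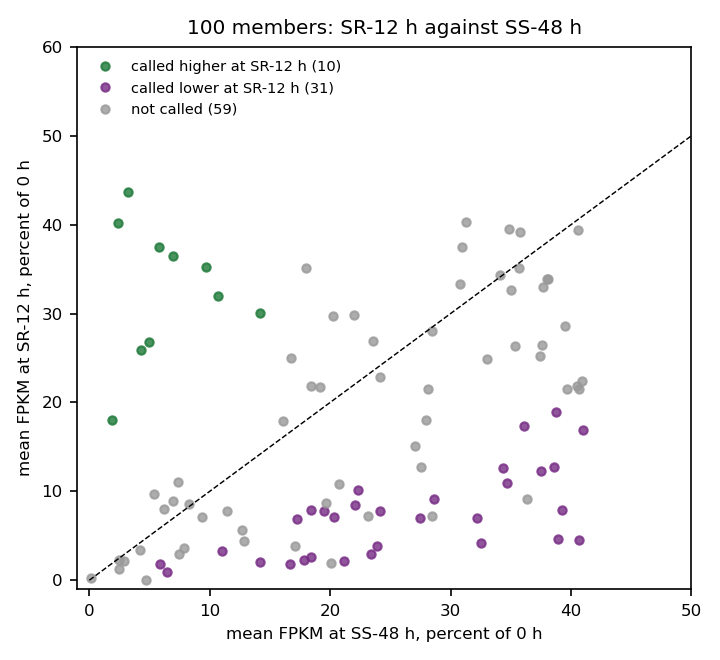
Mean FPKM at SR-12 h (vertical axis) and at SS-48 h (horizontal axis), each in percent of the mean at 0 h, one point per gene, with the dashed line of equal values. The 10 genes called higher sit at 18.0% to 43.7% of 0 h at SR-12 h, and the 31 called lower at 0.957% to 18.9%.

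The 31 genes that were lower again had a median of 7% of the level at 0 h at SR-12 h, against 23.9% at SS-48 h. The 3 largest drops were in Cz14g12230, Cz06g26230 and Cz12g18050. Cz14g12230 is annotated as pyridoxine 4-dehydrogenase, an enzyme of vitamin B6 interconversion, and resembles oxidoreductase B of the green alga Acutodesmus obliquus. Its levels were 209, 208 and 223 before starvation (0 h), 65.98, 56.05 and 51.97 after 6 h, 41.03, 40.5 and 38.2 after 12 h, 84.1, 68.3 and 75.05 after 24 h and 48.9, 46.2 and 39.97 after 48 h of it, then 3.94, 3.45 and 6.12 after replenishment (FPKM). The 3 replenished samples lay far under all 12 starved ones (log2 fold change -3.09 ± 0.14 (SE), adjusted p = 7.79e-11).

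Cz06g26230, placed under RNA processing by its gene ontology term and otherwise hypothetical, was the most highly expressed of the 100 genes at 0 h. It was measured at 1698, 1837 and 1844 before starvation (0 h), 515, 403 and 348 after 6 h, 234, 231 and 205 after 12 h, 515, 512 and 485 after 24 h and 663, 784 and 647 after 48 h of it, then 89.9, 67.2 and 90.2 after replenishment (FPKM). Its transcripts rose to 504 FPKM on average after 24 h of starvation, against 223 after 12 h (log2 fold change 1.17 ± 0.14 (SE), adjusted p = 2.45e-06), and were then lower at SR-12 h than in any starved sample (log2 fold change -3.07 ± 0.14 (SE), adjusted p = 4.72e-11). Cz12g18050, without a description, had 7.39, 6.64 and 4.62 FPKM at SR-12 h, against 79.1, 45.3 and 43.3 at SS-48 h, and 311, 338 and 354 before starvation. The first replicate at SS-48 h was the highest of the starved samples, and all 3 at SR-12 h were below all 3 at SS-48 h (log2 fold change -2.94 ± 0.26 (SE), adjusted p = 9.09e-08).

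The 10 genes that were higher after replenishment had a median of 33.6% of the level at 0 h there, against 5.37% at SS-48 h. The largest rise was in Cz13g04150, which resembles tRNA-dihydrouridine synthase 3, an enzyme that reduces uridines in transfer RNA. Its levels were 646, 615 and 606 before starvation (0 h), 57.1, 70.7 and 51.7 after 6 h, 119.8, 109 and 107 after 12 h, 193, 234 and 179 after 24 h and 13.04, 16.96 and 15.1 after 48 h of it, then 259, 243 and 249 after replenishment (FPKM). It was called lower after 48 h of starvation than after 24 h (log2 fold change -3.66 ± 0.12 (SE), adjusted p = 1.28e-11) and higher after replenishment than before it (log2 fold change 3.98 ± 0.12 (SE), adjusted p = 6.92e-13).

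The next largest rises were in Cz08g03050 and Cz01g07100, both without a description. Cz08g03050 had 46.5, 47.6 and 45.2 FPKM at SR-12 h, against 0.77, 4.25 and 5.19 at SS-48 h, and 108, 105 and 106 before starvation (log2 fold change 3.62 ± 0.34 (SE), adjusted p = 1.99e-07). Cz01g07100 had 12.2, 10.99 and 11.03 FPKM at SR-12 h, against 1, 1.36 and 1.17 at SS-48 h, and 70.4, 60.8 and 59.3 before starvation (log2 fold change 2.51 ± 0.20 (SE), adjusted p = 3.54e-08). In both, all replenished samples lay above all SS-48 h samples, and their levels at SS-24 h, 46.9, 39.6 and 28.6 FPKM and 10.3, 16.8 and 11.02 FPKM, also lay above all at SS-48 h.

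Among genes of redox control and detoxification, Cz03g29230 is named TRX3 and belongs to the thioredoxins, small proteins that reduce disulfide bonds through a pair of cysteines. It was measured at 876, 827 and 841 before starvation (0 h), 85.8, 73.97 and 63.3 after 6 h, 96.1, 102 and 86.7 after 12 h, 165, 133 and 167 after 24 h and 171, 196 and 160.1 after 48 h of it, then 93.7, 87.9 and 92.5 after replenishment (FPKM). Its means were higher at each later time of starvation, and every SR-12 h sample lay below every SS-48 h sample (log2 fold change -0.93 ± 0.11 (SE), adjusted p = 2.81e-06), a difference just short of the fold set for a call. Cz05g10190 belongs to the glyoxylase I family, enzymes known for removing the reactive aldehyde methylglyoxal with the help of glutathione. Its levels were 492, 485 and 459 before starvation (0 h), 41.1, 51.4 and 42.3 after 6 h, 142, 153 and 137 after 12 h, 64.8, 87.2 and 77.96 after 24 h and 66.6, 68.3 and 68.2 after 48 h of it, then 151, 130.0 and 151 after replenishment (FPKM). It rose at SS-12 h (log2 fold change 1.66 ± 0.10 (SE), adjusted p = 4.12e-09), and its SR-12 h samples overlapped those at SS-12 h and were all above those at SS-48 h (log2 fold change 1.07 ± 0.10 (SE), adjusted p = 2.32e-07).

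Among transport and nitrogen genes, Cz09g23310 encodes an aquaporin, a channel for water and small neutral solutes, similar to aquaporin-8. It was measured at 289.6, 277 and 301 before starvation (0 h), 10.7, 15.2 and 12.9 after 6 h, 16.7, 20.02 and 19.6 after 12 h, 35.8, 34.2 and 32.04 after 24 h and 73.7, 38.8 and 37.3 after 48 h of it, then 22.9, 19.1 and 17.5 after replenishment (FPKM). Its means were higher at each later time of starvation, and it was called lower after replenishment (log2 fold change -1.22 ± 0.20 (SE), adjusted p = 5.76e-05), a call that was lost without the high first replicate at SS-48 h (log2 fold change -0.91) and after median-ratio scaling (-0.88). Cz01g32230 encodes cyanate lyase, which turns cyanate and bicarbonate into ammonia and CO2. Its levels were 851, 835 and 878 before starvation (0 h), 434, 297 and 269.7 after 6 h, 359, 342 and 325 after 12 h, 257, 309.9 and 255 after 24 h and 141, 209 and 222 after 48 h of it, then 86.3, 77.2 and 95.8 after replenishment (FPKM). All 3 samples at SR-12 h were below the 12 starved ones (log2 fold change -1.11 ± 0.17 (SE), adjusted p = 3.95e-05), where the call was lost after median-ratio scaling (-0.76) and without replicate 3 at SS-48 h (-0.99).

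**Figure D3:**
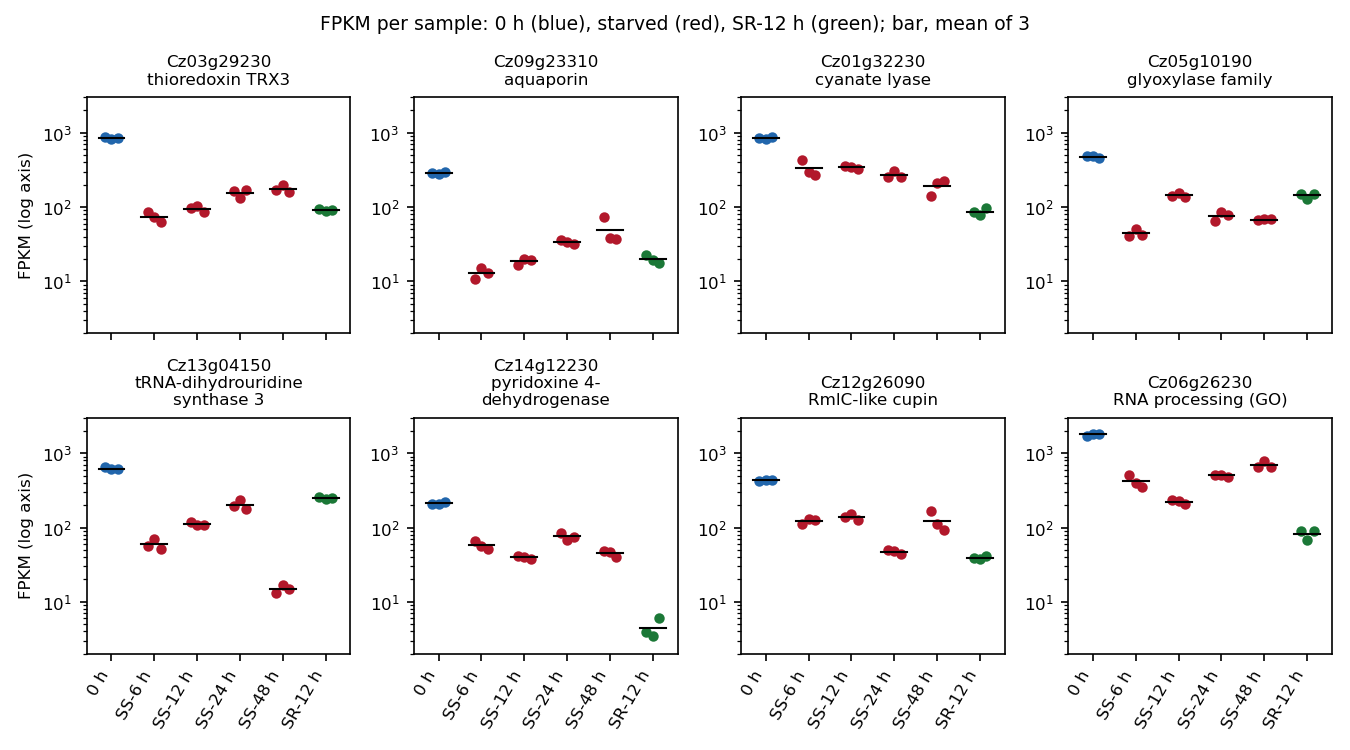
FPKM on a log axis (vertical) by condition (horizontal) for 8 genes with a description, one point per sample and a bar at the mean of 3 replicates. In every panel all samples after 0 h lie below the 3 at 0 h. Cz14g12230, Cz06g26230, Cz01g32230 and Cz12g26090 are lowest at SR-12 h, with means of 4.503, 82.4, 86.4 and 39.5 FPKM.

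The next 3 genes have entries for amino acid metabolism, RmlC-like cupins, and ascorbate and aldarate metabolism. Of these, Cz12g26090 is in the plot of described genes. Cz19g03010 has the gene ontology term for amino acid metabolism and had 40.5, 35.3 and 43.8 FPKM at SR-12 h, against 118, 139 and 113 at SS-48 h, and 516, 486 and 534 before starvation (log2 fold change -1.61 ± 0.13 (SE), adjusted p = 4.96e-08). Cz12g26090 belongs to the RmlC-like cupins, small barrel-shaped proteins of varied function. It was measured at 425, 437 and 442 before starvation (0 h), 111, 132 and 128 after 6 h, 141, 151 and 126 after 12 h, 49.3, 48.9 and 43.5 after 24 h and 168, 112 and 93.8 after 48 h of it, then 39, 37.99 and 41.5 after replenishment (FPKM), with a drop at SS-24 h (log2 fold change -1.54 ± 0.15 (SE), adjusted p = 4.05e-07), a rise at SS-48 h (log2 fold change 1.34 ± 0.15 (SE), adjusted p = 1.91e-06) and a second drop at SR-12 h (log2 fold change -1.59 ± 0.15 (SE), adjusted p = 2.03e-07). Cz07g32180, listed under ascorbate and aldarate metabolism, had 2.14, 2.01 and 1.97 FPKM at SR-12 h, against 25.8, 8.19 and 9.17 at SS-48 h, and 78.6, 75.3 and 80.1 before starvation (log2 fold change -2.16 ± 0.29 (SE), adjusted p = 9.71e-06). The replenished samples of each of these 3 genes lay below all of their SS-48 h samples.

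The lipid genes of the set were 2, both known only by the pathway they are listed under. Cz16g03140 is listed under biosynthesis of unsaturated fatty acids and had 17.3, 15.4 and 16.8 FPKM at SR-12 h, against 35.8, 27.6 and 28.4 at SS-48 h, and 82.5, 79.97 and 64.04 before starvation. Cz03g27070 is listed under ether lipid metabolism and had 21.2, 22.9 and 23.1 FPKM at SR-12 h, against 42.1, 41.7 and 39.1 at SS-48 h, and 102, 97.5 and 101 before starvation. Neither reached the fold for a call in SR-12 h relative to SS-48 h (log2 fold changes -0.84 ± 0.33 and -0.84 ± 0.12), although Cz03g27070 had fallen after 24 h of starvation and risen after 48 h, with log2 fold changes of -1.80 and 2.004 from the time before. Cz13g20090, listed under cytoskeletal part, had 6.70, 4.29 and 6.50 FPKM at SR-12 h and 12.7, 16.2 and 14.6 at 0 h, and Cz10g05170, listed under cellular protein metabolism, had 0.38, 0.22 and 0.43 FPKM at SR-12 h and 5.97, 6.25 and 5.88 at 0 h.

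The remaining genes with an entry match hypothetical proteins of other green algae. Cz19g05230 and Cz06g25170 were called higher after replenishment than after 48 h of starvation. Cz19g05230 had 198, 246 and 443 FPKM at SR-12 h, against 35.3, 86.96 and 46.7 at SS-48 h, and 906, 788 and 739.9 before starvation. Cz06g25170 had 107, 122 and 75.3 FPKM at SR-12 h, against 40.8, 22.5 and 38.3 at SS-48 h, and 261, 325 and 364 before starvation. The replenished samples of both were above all SS-48 h samples and below all from before starvation. Cz07g29220, Cz06g23010 and Cz15g03120 were not called, with log2 fold changes of -0.92, 0.96 and -0.80.

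Among the most highly expressed genes at 0 h, Cz14g15160 and Cz17g08060 have no description. Cz14g15160 was measured at 1862, 1648 and 1537 before starvation (0 h), 185, 185 and 203 after 6 h, 636, 529 and 611 after 12 h, 154, 128 and 134 after 24 h and 504, 214 and 308 after 48 h of it, then 134, 124 and 103 after replenishment (FPKM). Every sample after 12 h of starvation lay above every sample after 6 and 24 h, and it was called lower after replenishment than before it (log2 fold change -1.42 ± 0.21 (SE), adjusted p = 2.87e-05). Cz17g08060 had 66.5, 75.7 and 84.3 FPKM at SR-12 h, against 53.8, 144 and 134 at SS-48 h, and 978, 933 and 997 before starvation, and the replenished and SS-48 h samples overlapped. At the other end, 8 genes were unlisted in all 3 replicates of at least 1 condition, among them Cz16g17150 at SS-12 h, UNPLg00061 at SR-12 h and Cz01g06090 at SS-12 h. UNPLg00061 had 0.25, 1.24 and 0.24 FPKM at SS-48 h, against 14.1, 10.1 and 12.2 FPKM at 0 h.

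The steps between neighbouring times within starvation were compared in the same way. At SS-12 h against SS-6 h, 10 were called higher and 4 lower, where 10.1% and 5.18% of all genes were. Replicate 1 at SS-6 h stood apart from its fellows (correlation of log2 values over the 100 genes 0.948 and 0.922, compared with 0.986 between the others) and had the lowest relative depth of the 18 samples, 0.784 of the mean, whose part in the counts was not tested, and without it 9 were higher and 11 lower, where 9.45% and 6.03% of all genes were. Median-ratio scaling gave 9 higher and 8 lower, where 8.13% and 6.85% of all genes were, and quantile normalization 5 and 11, where 6.12% and 5.8% were. At SS-24 h against SS-12 h, 15 were higher and 6 lower, where 11.2% and 8.73% of all genes were, and 13 and 13 after quantile normalization, where 9.51% and 9.23% were. At SS-48 h against SS-24 h, 16 were higher and 11 lower, where 13.1% and 6.59% of all genes were, and median-ratio scaling gave 11 and 13, where 8.87% and 8.57% of all genes were. In all, 47 genes were called in none of these comparisons nor in SR-12 h relative to SS-48 h, as was the case for 54.2% of all genes. Nothing in these counts is read as particular to the 100 genes.

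Some of the 100 genes carried consecutive gene IDs, a property the rule did not use. IDs run in order along each chromosome prefix of the gene models, and 35 of the 100 genes stood in 14 runs of 2 to 5 next to each other among the listed genes, which made 21 neighbouring pairs. The 100 comparison genes made 12 pairs holding 22 genes. Pairs were not counted for genes chosen without regard to expression, so they are not read as particular to the 100 genes. Of the 14 runs, 10 held 2 genes, 2 held 3, 1 held 4 and 1 held 5. A run ends where the choice of the genes ends, so the genes beside it are given only as a description.

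The run of 4 genes starts with Cz01g06080, described above, and goes on with Cz01g06090, Cz01g06100 and Cz01g06110. The last 2 of these and Cz11g07120, which lies in another run, were the lowest of the 100 genes at 0 h. Cz01g06090 had 0.35, 0.89 and 0.35 FPKM at SR-12 h, against 4.59, 6.47 and 6.68 at 0 h, Cz01g06100 had 0.32, 0.64 and 0.23, against 2.92, 4.18 and 3.65, and Cz01g06110 had 0.17, 0.34 and 0.25, against 2.17, 2.55 and 3.16. The flanking genes Cz01g06070 and Cz01g06120 averaged 32.2 and 9.82 FPKM at SR-12 h, against 27.1 and 16.5 at 0 h.

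The run of 5, Cz06g28050 to Cz06g28090, averaged 5.38, 4.99, 5.81, 3.36 and 3.75 FPKM at SR-12 h in ID order, against 24.7, 22.8, 23.2, 11.3 and 13.9 at 0 h. At SS-6 h these 5 genes had 3.85, 0.86, 0.90, 0.27 and 2.30 FPKM in replicate 1, the sample that stood apart. Replicate 2 had 15.05, 8.87, 9.72, 3.94 and 4.22 FPKM, and replicate 3 had 16.43, 14.29, 14.19, 9.43 and 7.24 FPKM. The fall of this run at SS-6 h, which the rule used, therefore leans on 1 sample. The run was lowest at SS-24 h in 4 of the 5. The gene before it, Cz06g28040, took a like course with 6.99 FPKM at SR-12 h, against 27.9 at 0 h. The run Cz03g00180, Cz03g00190 and Cz03g00200 averaged 0.11, 0.20 and 0.28 FPKM at SR-12 h, against 1.12, 0.89 and 2.21 after 48 h of starvation and 5.56, 5.24 and 9.45 at 0 h. The gene before it, Cz03g00170, averaged 197 FPKM at SR-12 h, against 145 at 0 h. In the run of Cz16g01130, Cz16g01140 and Cz16g01150, the third alone was called in SR-12 h relative to SS-48 h (log2 fold change -1.55 ± 0.11 (SE), adjusted p = 1.01e-08).

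**Figure D4:**
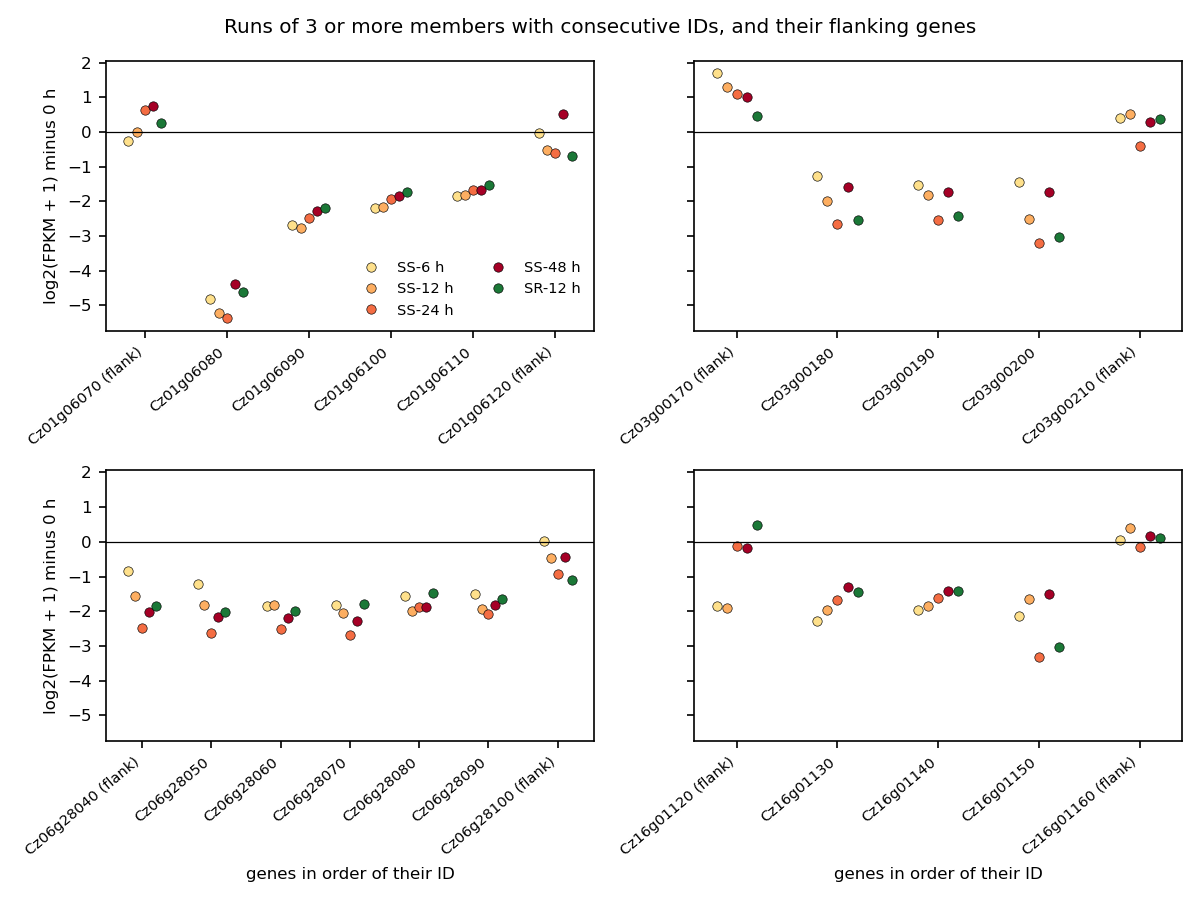
Difference in mean log2(FPKM + 1) from 0 h (vertical axis) for the 4 runs of 3 or more consecutive genes and the listed gene on either side (horizontal axis, in ID order), with one point per condition coloured by time. The 5 points of every gene in a run lie below -1, while Cz03g00170 lies above 0 throughout.

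Overlap of neighbouring gene models, shared reads and the merging of one transcript into several models were not tested, since coordinates were not used here. Without strand information in the library, reads of a gene and of an antisense neighbour cannot be told apart.

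Gene lists of the study were looked up to place the 100 genes, which are 0.657% of all genes, so lists of this size can be without one of them by their size alone. The antenna and microtubule motor lists were drawn by the study from genes changed at SS-6 h in these samples. The calls within them are therefore a description only. None of the 18 listed antenna proteins, which bind chlorophyll around the photosystems, was among the 100, while 15 were among the comparison genes. In SR-12 h relative to SS-48 h, 16 of these 18 were called higher, with a median log2 fold change of 6.48. None of the 23 microtubule motor genes was among the 100, and 11 were called higher and 1 lower. None of the 15 cell division genes was either, and 12 were called higher. This last list was made here, by gene description, from the genes the study picked for their fall at SS-6 h in these samples.

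Likewise 25 carbon fixation genes and 169 genes in 8 lists of lipid, carotenoid and central carbon metabolism included none of the 100. At SR-12 h against 0 h, 4 of the carbon fixation genes were called lower and 1 higher, where 8.42% and 4.99% of all genes were. The lists that hold a member were unsaturated fatty acid biosynthesis, with 1 of 22 genes among the 100 and 5 called lower at SR-12 h against 0 h, ether lipid metabolism, with 1 of 13 and 4 lower, and ascorbate metabolism, with 1 of 24 and 4 lower and 4 higher. Of the 49 genes picked by the study for their fall at SS-6 h, 6 were among the 100, and 33 of the 49 were called higher after replenishment than after 48 h of starvation. The rule for the 100 genes used the same SS-6 h samples, so this overlap is a description only. The unsaturated fatty acid and ether lipid lists were likewise drawn by the study from genes changed at SS-6 h. Its carbon fixation and ascorbate lists were drawn from genes that differed between replenished cells and cells starved for 48 h. The counts of called genes in these lists are a description too.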

How the data were processed

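RNA-seq of 18 samples in 6 conditions of 3 replicates was used, grouped by the sample labels. The deposited values are FPKM to 0.01. The authors purified poly-A RNA, sequenced single-end reads, mapped them with HISAT and Bowtie2 and calculated expression with RSEM (versions not given in the sources used here), and called differential genes with DESeq2 on counts, which are not used here. A gene not listed in a sample was taken as 0. Read totals are not used here; the smallest steps of FPKM gave relative depths of 0.784 (SS-6 h replicate 1) and 0.956 to 1.05 (the others) of the mean. Low FPKM rests on few reads and is the least precise.

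The values log2(FPKM + 1), a scale that understates changes of low genes, were fitted with limma 3.58.1 in R 4.3.3 (all 18 samples, trend, no block), with Benjamini-Hochberg adjustment over 15220 genes per comparison. A call needed an absolute log2 fold change of 1 or more together with an adjusted p of 0.05 or less. The p-values rest on the spread between replicates within conditions, pooled over the 6 conditions and drawn towards a trend over all genes. Tables were handled in Python 3.11.15 with pandas 2.3.3.

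The 100 genes, the gene lists and the comparison genes were chosen with earlier results of these data known. Genes were named if the tables used here describe them (the study's annotation of all genes was used in a shortened copy), if they were the first or last 3 by the rule or the 3 just outside, the 3 highest or lowest at 0 h, the 3 largest called rises or falls in SR-12 h relative to SS-48 h, or up to 3 of those unlisted in a whole condition; gene runs and exceptions were named after their values were seen. Whether same-numbered replicates came from the same culture is not stated in the sources used here. Of 45 same-numbered pairs across conditions, 12 had a correlation of deviations over 0.1, and the range was -0.57 to 0.35. These correlations cannot decide it, since the deviations of 3 replicates from their mean depend on each other. Alternatives were other pseudocounts (0.1, 0.5), a mean of at least 1 FPKM, median-ratio scaling, TPM, quantile normalization, the 2 conditions alone, a replicate block, no trend, no fold minimum and leaving out each sample.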

Additional observations from a re-analysis of the deposited data

How the results depend on the processing

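In SR-12 h relative to SS-48 h, 10 genes were higher and 31 lower with the replicate block too, and the block moved no count of the 4 comparisons by over 1.5 times; 8 of 18 samples correlated best with their own number. Leaving out 1 sample gave 10 to 11 higher and 30 to 33 lower there, 9 to 14 higher and 4 to 11 lower from 6 to 12 h of starvation, 14 to 17 and 6 to 7 from 12 to 24 h, and 13 to 19 and 10 to 11 from 24 to 48 h. Leaving out 1 sample kept 91 to 99 of the 100 genes, the fewest without SS-6 h replicate 1. Without 1 sample the median SR-12 h minus 0 h was -2.40 to -2.29. With no fold minimum, 50 genes were lower after replenishment than before it (48.9% of all genes), 26 higher and 17 lower from 6 to 12 h of starvation (34.3% and 17.3%), 33 and 14 from 12 to 24 h (29.4% and 28.3%), and 29 and 17 from 24 to 48 h (41.7% and 17.6%). With a pseudocount of 0.1, 9 were lower from 6 to 12 h (5.87% of all genes) and 10 from 12 to 24 h (9.83%). Median-ratio scaling gave 8 lower from 6 to 12 h, and quantile normalization 5 higher and 11 lower there and 13 lower from 12 to 24 h. The median SR-12 h minus 0 h was -2.97 with a pseudocount of 0.1, -2.65 with 0.5 and -2.18 after quantile normalization.

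The choice itself kept 77 of the 100 genes with a pseudocount of 0.1, 94 with 0.5, 89 after median-ratio scaling, 95 with TPM, 78 after quantile normalization and 100 with a rule threshold of -1. Of 34 named genes 15 were called in SR-12 h relative to SS-48 h, and 12 of these kept the call in every alternative; the exceptions were Cz09g23310, Cz01g32230 and Cz05g10190, the last at 0.94 with TPM. Sign changes occurred only in genes that were not called. Cz11g28160, at -0.02, gave 0.033 with a pseudocount of 0.1, 0.15 after median-ratio scaling, 0.18 after quantile normalization and -0.19 to 0.26 without 1 sample. Cz11g07120, at -0.07, gave 0.0891, 0.0062 and 0.0658 under the same 3 settings and -0.27 to 0.0744 without 1 sample, and Cz01g06090, at 0.10, gave -0.0633 to 0.18 without 1 sample. The causes were not tested.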
